A study of Mus musculus with 8 samples.

Results

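Selenoproteins are enzymes and binding proteins that carry selenocysteine, an amino acid inserted at a UGA codon that in other messages ends translation. Insertion needs a stem-loop of the message (the SECIS element), the SECIS-binding protein encoded by Secisbp2, a dedicated elongation factor and a dedicated tRNA. When selenium is short, some selenoprotein messages are degraded as if the UGA were a premature stop, and Gpx1 is the textbook case. Muscle depends on these proteins: lack of selenium causes a myopathy in livestock, and mutations of the human counterpart of Sepn1 cause congenital muscle disease.

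The genes described are 10 of the 24341 listed in the tables, 9 selenoprotein genes (Gpx1, Gpx3, Gpx4, Msrb1, Txnrd1, Txnrd2, Sepw1, Sepp1 and Sepn1) and Secisbp2, found by symbol. All 10 were listed and all 10 passed the filter on low values. The set was chosen by measured values of this same contrast, since Gpx1 and Msrb1 were lower in the knockout, so the difference of these 2 genes between the groups is given as a description, without a test. RNA was sequenced from the tibialis anterior, a muscle at the front of the shin with mostly fast fibres, of 8 chow-fed mice aged 12 weeks and described as male. The 4 knockouts (Carm1 skm-/-) carried the HSAcre transgene (Tg/0) and floxed Carm1, and the 4 controls (Carm1 skm+/+) carried floxed Carm1 without the transgene (0/0). Carm1 encodes an arginine methyltransferase that acts as a transcriptional coactivator. The human skeletal actin promoter drives Cre in muscle fibres, so other cells of the tissue are expected to keep the gene, and presence of Cre and loss of Carm1 cannot be told apart. The comparison asks which transcripts change when fibres lose Carm1.

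Carm1 lay between 24.7 and 36.0 FPKM in the controls and between 13.5 and 18.4 in the knockouts. Xist, a transcript of female cells, reached 19.6 to 22.9 FPKM in control 1, knockout 2 and knockout 4 and at most 0.0662 in the other 5 libraries. Eif2s3y, a gene of the Y chromosome, was at most 0.112 FPKM in these 3 and lay between 42.3 and 58.1 in the other 5. Both go against the label of male for control 1, knockout 2 and knockout 4, so by these transcripts sex was not balanced between the groups. Knockout 2 and knockout 4 were also the only libraries of the 8 with no gene of low-data status. Differences of the genes described most fully are therefore also given within these 3 libraries, within the other 5, or without both knockout 2 and knockout 4. Of 8 fibre markers, Mb, Tnni2, Pvalb, Myl1 and Actn3 had a usable estimate and were abundant in every library, while Acta1, Ckm and Tnnt3 were listed at 0 in some libraries with a failed or low-data status. Read counts are unknown; judged by the steps between low FPKM, each library had between 81.0% and 100% of the depth of the deepest.

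The UGA codon is what makes these genes one family, and the coding sequence around it is printed for the members whose values are described most fully. The sequences are from GENCODE M21 transcripts (GRCm38), 5′ to 3′ as the message reads, with T for U; capitals mark the selenocysteine codon, and each run stays within the coding sequence.
Gpx1: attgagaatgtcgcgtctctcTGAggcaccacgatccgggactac
Gpx3: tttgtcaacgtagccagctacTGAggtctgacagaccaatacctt
Gpx4: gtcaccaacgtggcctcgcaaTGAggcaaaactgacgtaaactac
Msrb1: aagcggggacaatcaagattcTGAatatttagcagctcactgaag
Sepw1: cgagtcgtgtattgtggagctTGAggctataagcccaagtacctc
Txnrd1: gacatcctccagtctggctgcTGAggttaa
Txnrd2: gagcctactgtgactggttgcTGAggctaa
The codon is number 47 of 201 in Gpx1 (chromosome 9, 108339451 to 108339453, plus strand) and number 95 of 116 in Msrb1 (chromosome 17, 24740158 to 24740160, plus strand). In the thioredoxin reductases it is the last codon but one, number 498 of 499 in Txnrd1 and 526 of 527 in Txnrd2. In Sepw1 it is number 13 of 88, near the start. Sepp1, the plasma selenium carrier, is the exception in number, with 10 such codons.

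Values are FPKM (mapped fragments per length of transcript and per depth of library) divided by a scaling factor for each library. Differences are on the scale of log2(scaled FPKM + 1), knockout minus control, which understates the change of low genes. The levels of the family spanned a wide range in control muscle. Sepw1, a small redox protein named for white muscle disease, the myopathy of selenium deficiency, stood first at 1518 ± 147 scaled FPKM (mean ± SD, n = 4), and Gpx4, which reduces lipid hydroperoxides in membranes, second at 342 ± 43.1. Msrb1, a methionine sulfoxide reductase, followed at 190 ± 15.4 and Gpx3, the secreted glutathione peroxidase, at 128 ± 20.4. The control values of Sepw1, Gpx4, Msrb1 and Gpx3 did not overlap from one to the next in this order. Those of Gpx3 and Sepp1, and of Sepp1 and Sep15, did overlap. Gpx1, the cytosolic glutathione peroxidase, stood at 72.7 ± 6.59, eighth of the 23 selenoprotein genes listed and overlapping with its neighbour Selk, at 74.3 ± 7.43. Txnrd1, the cytosolic thioredoxin reductase, stood at 30.9 ± 3.62 and Txnrd2, the mitochondrial one, at 15.5 ± 1.82. Sepn1, which acts in calcium handling of the endoplasmic reticulum, was low at 3.55 ± 0.609. Summed over the 23 genes, control muscle held 2739 ± 191 scaled FPKM and knockout muscle 2703 ± 181 (mean ± SD over 4 libraries). Sepw1 alone made up between 53.7% and 57.0% of this sum in controls and between 57.4% and 64.5% in knockouts, a sum that holds the 2 genes chosen for being lower.

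**Figure D1:**
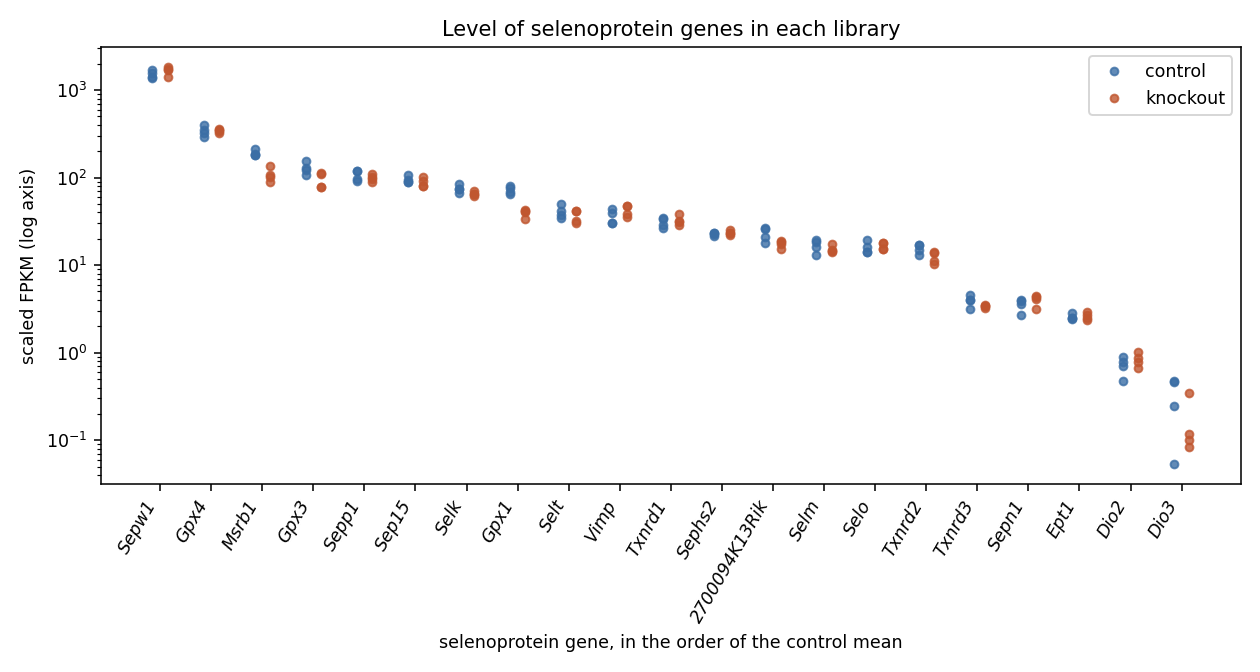
Scaled FPKM (log axis) of 21 selenoprotein genes in each control and knockout library, ordered by the control mean. Sepw1 leads, and the points of Msrb1 and Gpx1 separate between the groups; Dio1 and Gpx2, with values of 0, are not drawn.

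Gpx1 and Msrb1 are the members that chose the set. Gpx1 reduces hydrogen peroxide with glutathione. It stood at 65.3, 76.6, 79.6 and 69.2 scaled FPKM in controls 1 to 4 and at 41.7, 34.0, 42.4 and 40.6 in knockouts 1 to 4. Every knockout value lay below every control value, and the knockout mean was 54.6% of the control mean. The log2 difference of Gpx1 was -0.86 (SE 0.10). Msrb1 restores oxidised methionine and is known to act on actin. It stood at 179, 213, 181 and 187 scaled FPKM in controls 1 to 4 and at 136, 107, 89.5 and 102 in knockouts 1 to 4. The groups did not overlap here either, knockout 1 being the nearest to the controls, and the knockout mean was 57.2% of the control mean. The log2 difference of Msrb1 was -0.81 (SE 0.13). Both genes gave like differences among the libraries with and without Xist. Within the 3 libraries with Xist the log2 difference was -0.80 for Gpx1 and -0.77 for Msrb1, where control 1 is the single control. Within the 5 without Xist the difference was -0.82 and -0.80. Without both knockout 2 and knockout 4 it was -0.77 for each gene. The 5 fibre markers with a usable estimate, all with a difference below 0 and none past the threshold, summed to between 63760 and 87050 scaled FPKM in controls and between 43680 and 68600 in knockouts, with knockout 2 and knockout 4 lowest; their part in the difference of Gpx1 and Msrb1 was not tested. Neither gene overlaps another listed gene in the deposited coordinates. Gpx1 is listed on chromosome 9 from 108339079 to 108340344 and Msrb1 on chromosome 17 from 24736641 to 24742778 (mm10).

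In limma across all 11096 genes tested, with Benjamini-Hochberg adjustment, 2 of the 10 members passed an adjusted p of 0.05, both lower in the knockout, where 0.162% of all genes passed in that direction, and 0 higher, where 0.198% did. These are Gpx1 and Msrb1, so nothing is read from this count. The same 2 had no overlap between the groups in the lower direction, against 3.63% of all genes. The count of members past the threshold was 1 without control 1 or without any 1 of knockouts 1, 2 and 3, and 0 without control 2, control 3, control 4 or knockout 4; in these fits between 2 and 27 of all genes passed. Over these 8 fits the log2 difference stayed between -0.91 and -0.79 for Gpx1 and between -0.93 and -0.73 for Msrb1.

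**Figure D2:**
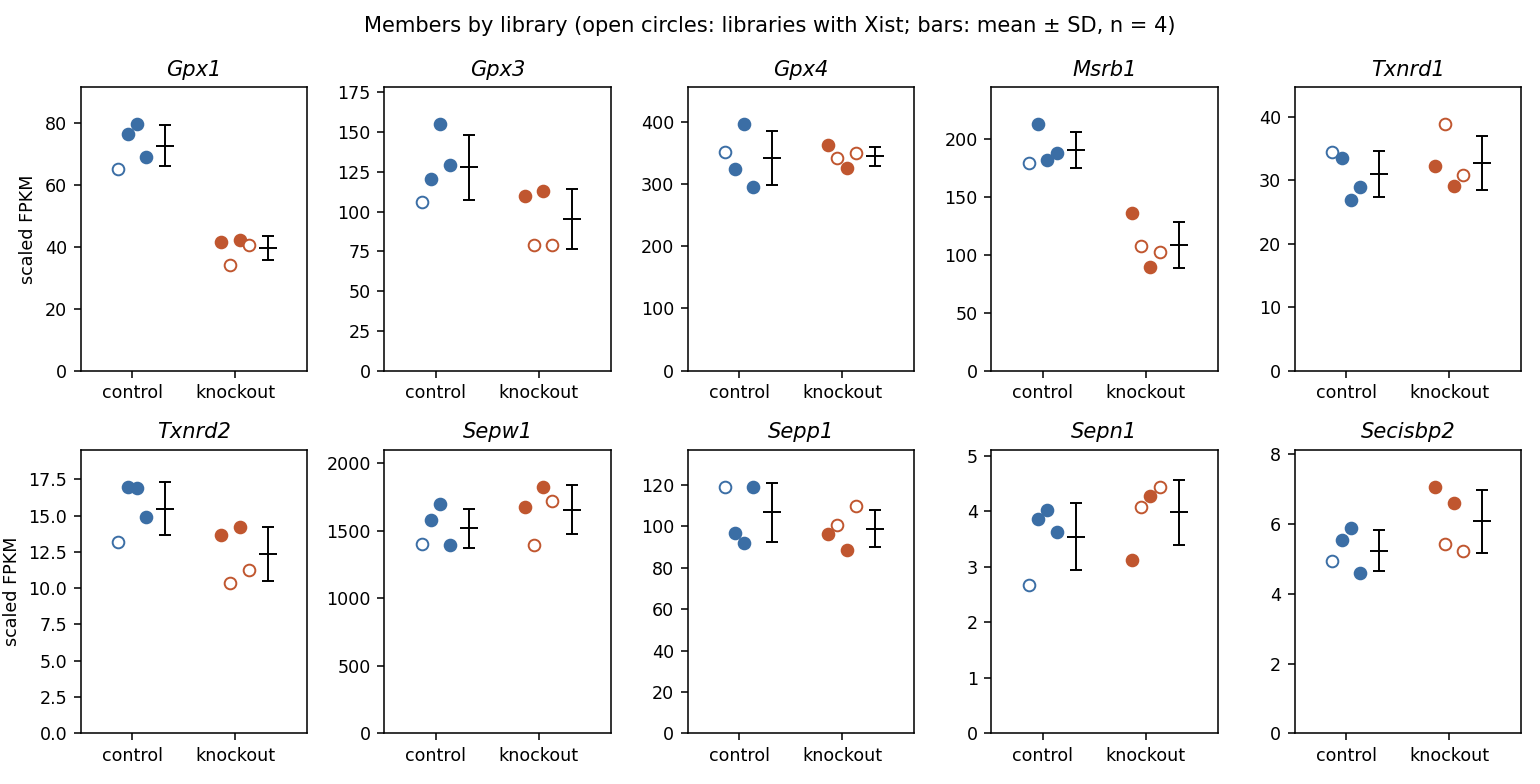
Scaled FPKM of each of the 10 members by library, with the mean ± SD of each group (n = 4) beside the points and open circles for the 3 libraries with Xist. The control and knockout points are apart in Gpx1 and Msrb1 and overlap in the other 8 panels.

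The other glutathione peroxidases among the members did not pass. Gpx3 stood at 106, 121, 155 and 129 scaled FPKM in controls 1 to 4 and at 110, 79.0, 113 and 78.8 in knockouts 1 to 4. All 4 knockouts lay below the control mean, yet knockout 1 and knockout 3 overlapped with control 1. Its log2 difference was -0.43 (95% interval -0.80 to -0.06, adjusted p = 0.308 in limma). It was -0.43 within the libraries with Xist, -0.27 within those without and -0.18 without both knockout 2 and knockout 4, the 2 lowest values. In muscle tissue Gpx3 can also come from other cells, and in bulk RNA fewer cells of a type and less RNA per cell cannot be told apart. The 7 fibro-adipogenic markers (Pdgfra, Dcn, Lum, Dpt, Smoc2, Col3a1 and Mfap5) summed to between 253 and 524 scaled FPKM in controls and between 208 and 369 in knockouts. None was listed at 0 in any library. All 7 had a difference below 0, with 3 at an unadjusted p under 0.05 in limma, where 6.07% of all genes were lower at that level. Within the libraries with Xist, where control 1 is the single control, their differences ran from -0.12 (Col3a1) to 0.51 (Dcn). Within those without Xist they ran from -0.97 (Col3a1) to -0.34 (Pdgfra). The part of these markers in the difference of Gpx3 was not tested. The 6 endothelial markers, all with a difference below 0 and none at an unadjusted p under 0.05, summed to between 263 and 302 in controls and between 223 and 297 in knockouts, and their part was not tested. All 6 macrophage and all 3 erythroid markers tested had a difference above 0, with 0 at an unadjusted p under 0.05. The log2 differences ran from 0.09 to 0.19 for macrophage markers. Those of erythroid markers were 0.0006 for Alas2, 0.03 for Hba-a1 and 0.46 for Hbb-bt. The 7 macrophage markers summed to between 19.8 and 34.9 in controls and between 21.4 and 37.9 in knockouts. The 6 erythroid markers summed to between 173 and 296 in controls and between 191 and 417 in knockouts. The part of these markers was not tested. The 6 adipocyte markers summed to between 890 and 1120 in controls and between 662 and 1023 in knockouts. Fabp4, also made by endothelium, was the greater share. The 3 that were tested (Cfd, Fabp4 and Retn) had a difference below 0. The untested Adipoq, Plin1 and Lep had higher means in knockouts, at 1.28, 0.265 and 0.202 scaled FPKM against 1.25, 0.237 and 0.0998 in controls. Knockout 1 held the highest value of each of these untested genes. The part of the adipocyte markers was not tested either.

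Gpx4 was level between the groups. Its values were 352, 325, 396 and 294 scaled FPKM in controls 1 to 4 and 362, 342, 325 and 349 in knockouts 1 to 4. The knockouts lay inside the range of the controls. The log2 difference was 0.02 (95% interval -0.21 to 0.25, adjusted p = 0.955 in limma), with -0.03 within the libraries with Xist and 0.03 within those without. The deposited coordinates of Gpx4 span 672333 bases of chromosome 10 and overlap 48 other listed genes, and reads may have been shared among them. Of these 48 genes 29 were tested, and none of the 29 passed.

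Of the thioredoxin reductases, which recycle oxidised thioredoxin with NADPH, the mitochondrial Txnrd2 was lower without passing. It stood at 13.2, 17.0, 16.9 and 14.9 scaled FPKM in controls 1 to 4 and at 13.7, 10.4, 14.2 and 11.2 in knockouts 1 to 4. Knockout 1 and knockout 3 overlapped with control 1. The log2 difference was -0.31 (95% interval -0.58 to -0.03, adjusted p = 0.334 in limma) and -0.14 without both knockout 2 and knockout 4. In the deposited coordinates Txnrd2 overlaps Arvcf, which did not pass and stood at 3.84 ± 0.362 scaled FPKM in controls against 4.90 ± 0.585 in knockouts (mean ± SD over 4 libraries). The cytosolic Txnrd1 stood at 34.5, 33.5, 26.9 and 28.9 in controls 1 to 4 and at 32.2, 38.8, 29.1 and 30.8 in knockouts 1 to 4. The groups overlapped throughout, with a log2 difference of 0.08 (95% interval -0.18 to 0.34, adjusted p = 0.828 in limma). It was 0.00 within the libraries with Xist, 0.04 within those without and -0.01 without both knockout 2 and knockout 4. Txnrd1 overlaps the listed gene Eid3, at 0.171 ± 0.0716 scaled FPKM in controls against 0.194 ± 0.0444 in knockouts (mean ± SD over 4 libraries).

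Sepw1, Sepp1 and Sepn1 did not pass either. Sepw1 stood at 1402, 1581, 1696 and 1392 scaled FPKM in controls 1 to 4 and at 1677, 1398, 1826 and 1720 in knockouts 1 to 4. The ranges overlapped, with knockout 2 as low as the lowest controls, and the log2 difference was 0.12 (95% interval -0.14 to 0.39, adjusted p = 0.711 in limma), or 0.21 without both knockout 2 and knockout 4. Sepp1 stood at 119, 96.9, 92.1 and 119 in controls 1 to 4 and at 96.2, 101, 88.5 and 110 in knockouts 1 to 4. Its log2 difference was -0.10 (95% interval -0.36 to 0.15, adjusted p = 0.752 in limma), or -0.20 without both knockout 2 and knockout 4. Sepp1 is made chiefly by liver, and the liver markers Alb, Apoa1 and Ttr summed to at most 1.99 scaled FPKM in any library. Sepn1 stood at 2.67, 3.86, 4.03 and 3.63 in controls 1 to 4 and at 3.13, 4.08, 4.28 and 4.44 in knockouts 1 to 4. The lowest value was that of control 1, and the log2 difference was 0.14 (95% interval -0.16 to 0.42, adjusted p = 0.712 in limma). It was 0.52 within the libraries with Xist, where control 1 is the single control, and -0.05 within those without.

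Secisbp2, which binds the SECIS element and recruits the elongation factor, had the highest difference of the 10. It stood at 4.95, 5.53, 5.89 and 4.59 scaled FPKM in controls 1 to 4 and at 7.07, 5.42, 6.62 and 5.23 in knockouts 1 to 4. Knockout 1 and knockout 3 lay above every control, and knockout 2 and knockout 4 lay within the control range. The log2 difference was 0.18 (95% interval -0.07 to 0.43, adjusted p = 0.532 in limma), and it was 0.33 without both knockout 2 and knockout 4 and 0.31 within the libraries without Xist.

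The remaining genes of the incorporation and selenium-handling pathway gave no call. Of 16 such genes 14 were tested with limma and 0 passed in either direction, where 0.36% of all genes passed, and 0 had an unadjusted p under 0.05, where 13.1% of all genes did. Of the 14, 7 had a difference above 0 and 7 below, with a median log2 difference of -0.0009, against -0.0021 over all genes. Eefsec, the elongation factor, stood at 2.73 ± 0.303 scaled FPKM in controls against 2.41 ± 0.0781 in knockouts (mean ± SD over 4 libraries), with a log2 difference of -0.13. The enzymes that build selenocysteine on its tRNA differed in spread: Pstk, the kinase, stood at 39.0 ± 1.33 in controls and 38.7 ± 0.876 in knockouts, while Sepsecs, the synthase, ranged from 1.69 to 3.28 over the 8 libraries, with a log2 difference of 0.09 (95% interval -0.28 to 0.46). Sars, which charges that tRNA with serine, differed by -0.15, Trnau1ap, which binds it, by -0.15, and Trit1, which modifies it, by 0.03 on the log2 scale. Scly, which releases selenium from selenocysteine, differed by 0.12, Sephs1 by 0.13 and Secisbp2l, the paralogue of Secisbp2, by 0.09. Among RNA-binding proteins with a reported part in selenoprotein translation, the ribosomal protein gene Rpl30 had the greatest difference, -0.33 (95% interval -0.72 to 0.07, adjusted p = 0.477 in limma). Rpl30 lay between 9.29 and 18.9 scaled FPKM over the 8 libraries, where another ribosomal protein gene, Rps15, had a control mean of 995.5. The reason for this low level was not tested, so the value of Rpl30 is uncertain. Ncl, Eif4a3, Celf1 and Elavl1 differed by 0.01, 0.05, -0.04 and -0.14 on the log2 scale. The selenoprotein P receptors Lrp8 and Lrp2 were not tested: Lrp8 reached at most 0.0294 and Lrp2 at most 0.00322 scaled FPKM in any library.

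**Figure D3:**
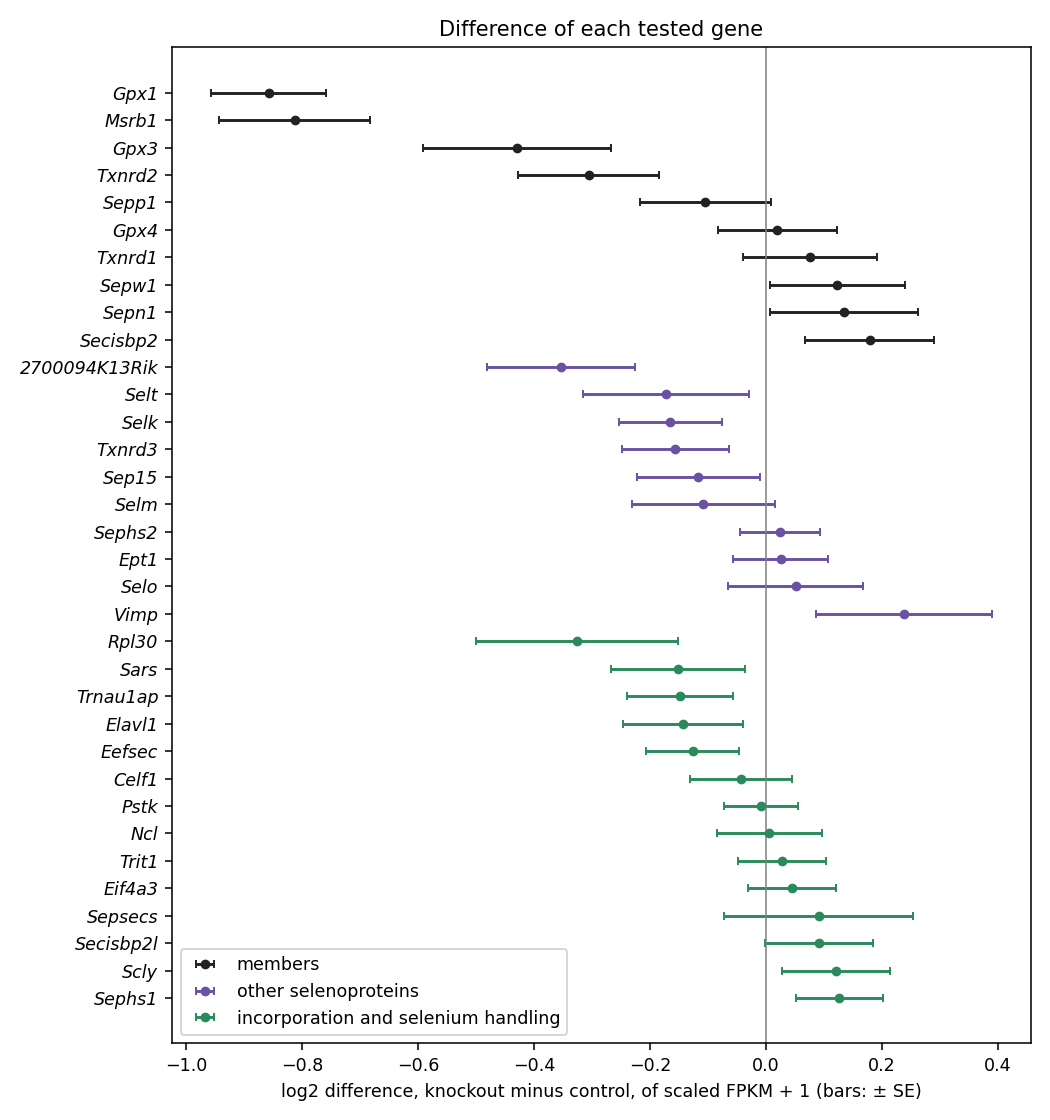
Log2 difference, knockout minus control, with ± SE for each of the 10 members, the 10 other selenoprotein genes tested and the 14 incorporation and handling genes tested. Gpx1 at -0.86 and Msrb1 at -0.81 lie apart from the other genes, which lie between -0.43 (Gpx3) and 0.24 (Vimp).

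The other selenoproteins were 15 genes, of which 14 were listed and 10 tested with limma. Of these 0 passed, where 0.36% of all genes did, and 1 had an unadjusted p under 0.05, where 13.1% of all genes did. The median log2 difference was -0.11, with 6 below 0 and 4 above. The 1 gene was 2700094K13Rik, now called Selenoh, a nucleolar selenoprotein. It stood at 25.6, 20.9, 26.4 and 18.0 scaled FPKM in controls 1 to 4 and at 17.5, 15.3, 18.1 and 18.7 in knockouts 1 to 4. The groups overlapped through control 4, and the log2 difference was -0.35 (95% interval -0.65 to -0.06, adjusted p = 0.284 in limma). It was -0.57 within the libraries with Xist and -0.26 within those without. Vimp (Selenos), of the machinery that removes misfolded proteins from the endoplasmic reticulum, had the highest difference, 0.24 (95% interval -0.11 to 0.58, adjusted p = 0.541 in limma). Knockout 2 and knockout 4, at 47.4 and 47.5 scaled FPKM, were its highest libraries, and without both the difference was 0.06. Among the other proteins of that compartment, Selk differed by -0.16, Selt by -0.17, Sep15 (Selenof) by -0.12 and Selm by -0.11 on the log2 scale. RefSeq lists pseudogenes of Selk and of Selt, so their values are uncertain. Sephs2, which makes the selenium donor and is itself a selenoprotein, stood at 22.9 ± 0.883 scaled FPKM in controls against 23.3 ± 1.18 in knockouts (mean ± SD over 4 libraries). Txnrd3, the reductase best known from testis, differed by -0.16, the mitochondrial Selo by 0.05 and the phospholipid enzyme Ept1 (Selenoi) by 0.03. The deiodinases and Gpx2 did not pass the filter: Dio2, which activates thyroid hormone, lay between 0.474 and 1.01 scaled FPKM, Dio3 between 0.0538 and 0.473, Dio1 at or below 0.0192 and Gpx2 at or below 0.0512. Selv was not analysed here.

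Leaving Sepw1 aside, the summed selenoprotein level was 1221 ± 53.2 scaled FPKM in controls, from 1183 to 1299, and 1048 ± 35.7 in knockouts, from 1004 to 1088 (mean ± SD over 4 libraries). The difference of -173 scaled FPKM consisted of -81.3 from Msrb1, -33.0 from Gpx1, -32.6 from Gpx3 and -26.0 from the other genes together. Msrb1 and Gpx1 were chosen for being lower, and without these 2 the groups overlapped: the sums were 966, 903, 1038 and 926 in controls 1 to 4 and 910, 895, 873 and 921 in knockouts 1 to 4. Without these 2 genes, 17 selenoprotein genes were tested; 0 passed in limma, 3 had an unadjusted p under 0.05, all lower, where 6.07% of all genes were lower at that level, and the median log2 difference was -0.10, with 9 genes below 0 and 8 above.

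The place of the UGA codon relative to the last exon junction is the feature that exposes a message to nonsense-mediated decay when the codon is read as a stop. In Gpx1 the codon lay 108 nt upstream of that junction and in Gpx3, Gpx4 and Sepw1 243, 345 and 246 nt. In Msrb1 it lay 37 nt upstream. In Txnrd1, Txnrd3, Vimp, Selo and Ept1 it lay in the last exon. The Sephs2 transcript has only 1 exon and so no junction. With a limit of 50 nt, chosen after the values were seen, 11 of the 19 tested genes had the codon farther upstream, with a median log2 difference of -0.12, from -0.86 (Gpx1) to 0.14 (Sepn1). The other 8, with Sephs2 counted among them, had a median of 0.03, from -0.81 (Msrb1) to 0.24 (Vimp). Gpx1 and Msrb1, whose values chose the set, fell on different sides of the limit and gave the lowest value of each. Without them, the 10 genes farther upstream ran from -0.43 to 0.14 with a median of -0.11, and the other 7 from -0.16 (Selk) to 0.24 with a median of 0.03, so the ranges overlapped in part. These are descriptions across genes, without a test.

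**Figure D4:**
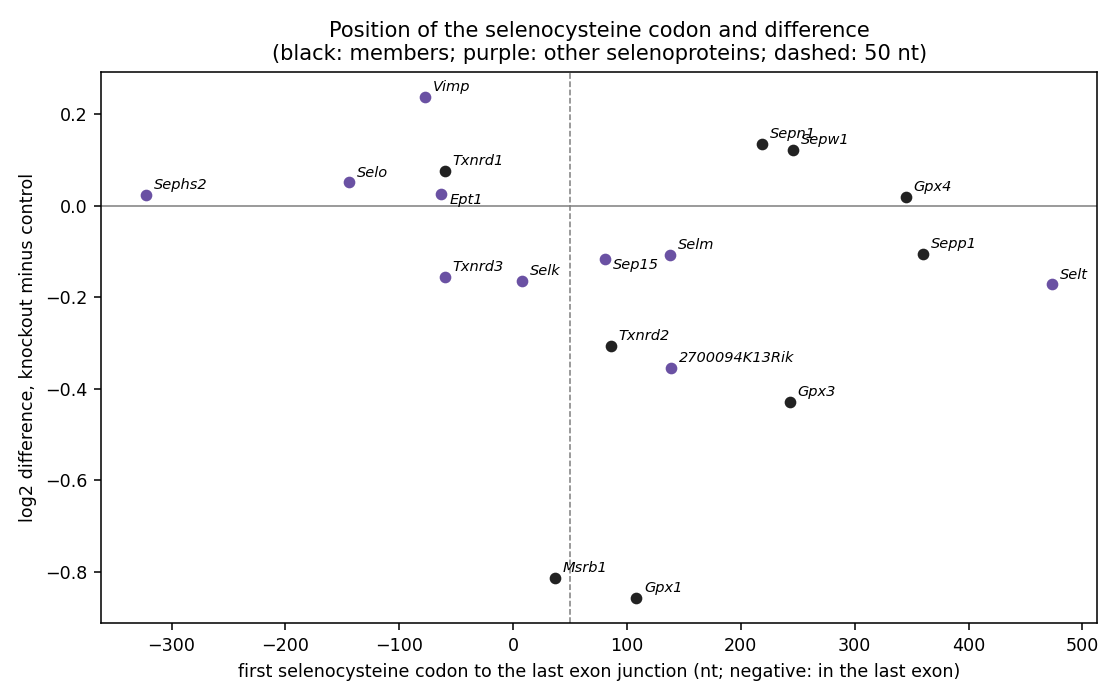
Log2 difference, knockout minus control, of 19 tested selenoprotein genes against the distance in nt from the first selenocysteine codon to the last exon junction. Negative distances mean that the codon is in the last exon. Sephs2 has 1 exon and no junction, and is drawn at the distance of its codon from the transcript start. Gpx1, at 108 nt, and Msrb1, at 37 nt, lie on either side of the dashed line at 50 nt.

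Cysteine-based homologues and partners of these enzymes form the rest of the redox circuit. Of 30 such genes 28 were tested with limma and 0 passed, where 0.36% of all genes did, and 2 had an unadjusted p under 0.05, both lower, where 6.07% of all genes were lower at that level. The median log2 difference was -0.07, with 18 below 0 and 10 above. The 2 are Sod2, the mitochondrial superoxide dismutase, and Msrb3, a methionine sulfoxide reductase without selenium in the same family as Msrb1. Sod2 stood at 117, 96.0, 100.5 and 92.4 scaled FPKM in controls 1 to 4 and at 67.7, 90.7, 84.9 and 84.1 in knockouts 1 to 4. The groups did not overlap, knockout 2 being the nearest to the controls, and the log2 difference was -0.31 (95% interval -0.57 to -0.05, adjusted p = 0.297 in limma), with -0.42 within the libraries with Xist and -0.34 within those without. Of all genes 3.63% did not overlap in the lower direction. Msrb3 stood at 44.9, 56.8, 48.8 and 56.1 in controls 1 to 4 and at 32.8, 37.1, 50.2 and 41.6 in knockouts 1 to 4. Knockout 3 overlapped with the controls, and the log2 difference was -0.36 (95% interval -0.67 to -0.04, adjusted p = 0.317 in limma), with -0.19 within the libraries with Xist and -0.40 within those without.

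By the root mean square difference between centred log2 profiles over the 8 libraries, the genes most like Gpx1 among 6776 were Mllt11, Asb10 and Mgst3, at 0.12, 0.14 and 0.15. Mgst3, a microsomal glutathione transferase that also has peroxidase activity, went from 693 ± 102 to 432 ± 67.9 scaled FPKM (mean ± SD over 4 libraries), a log2 difference of -0.68. Mllt11 went from 49.3 ± 9.71 to 28.1 ± 2.75 and Asb10 from 62.5 ± 7.89 to 30.5 ± 3.92. The genes most like Msrb1 were Meg3, Carm1 itself and Pts, at 0.18, 0.20 and 0.21. Msrb1 stood at 0.20 from Gpx1, ninth in the order from Gpx1. These profiles hold the difference between the groups, so likeness mainly reflects a similar difference. The differences of the genes picked by likeness are therefore a description, without a test.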

How the data were processed

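Total RNA of snap-frozen muscle was isolated with Trizol and prepared for sequencing with the TruSeq RNA v2 kit, per the labels' protocols. STAR, Cufflinks and mm10 are named in the submitters' processing notes, without versions; for the annotation, no source used here gives a name. The authors deposited FPKM, 1 Cufflinks-style gene table for each library, per the file headers. No counts are given, so no count model was used and absolute depth is unknown. Cufflinks divides reads among overlapping genes by estimation, and strand is not stated. Left out were 23 genes whose estimate was marked as failed or low-data somewhere. Date-like names (27, Sep15 among them) were resolved from their coordinates in RefSeq (GRCm38.p6).

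Scaled FPKM are FPKM over a median-of-ratios factor (0.904 to 1.07), computed over genes of at least 1 FPKM in all libraries. Genes reaching 1 scaled FPKM in 4 or more libraries were tested as log2(scaled FPKM + 1) with limma 3.58.1 in R 4.3.3 (eBayes with a trend), Benjamini-Hochberg adjustment over all genes and a threshold of 0.05, 2-sided. The script was tested on simulated data. The series' design text gives 4 animals per genotype. Members, lists and alternatives were chosen with earlier results of these data known. Every member and selenium gene was named; of redox partners, those past the threshold or the 2 smallest p; and the 3 genes most like Gpx1 and Msrb1 among tested genes averaging 5 or more scaled FPKM. A gene that the rule on names covers is not reported here. Fits on fewer libraries kept the same genes and scaling. Python 3.11.15, numpy 2.4.6, pandas 2.3.3 and matplotlib 3.10.9 were used for the rest.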

Additional observations from a re-analysis of the deposited data

How the results depend on the processing

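Across 19 alternatives Gpx1 and Msrb1 stayed lower in the knockout, with log2 differences from -0.91 to -0.77 and from -0.93 to -0.72. Of 189 log2 differences of members under an alternative, 183 kept their direction and 6 turned sign; members other than Gpx1 and Msrb1 passed the threshold under none of them. The 6 were of Gpx4 (-0.0488 to 0.0932 when 1 library is left out), Txnrd1 (-0.0060 to 0.13 when 1 library is left out, and -0.0085 without both knockout 2 and knockout 4) and Sepn1 (-0.0505 in the 5 libraries without Xist). The count of 2 members past the threshold in limma became 1 with a pseudocount of 0.1, with no filter, with a mean of at least 5 FPKM, with no scaling and with quantile normalization (Gpx1 each time). It became 0 in the 5 libraries without Xist and 0 without both knockout 2 and knockout 4, and lay between 0 and 1 when 1 library was left out. In each of the first 2 of these fits 3 members had an unadjusted p under 0.05 in limma. Of all 11096 genes, 1377 and 1432 did, and nothing is read from the 3. Over all genes 40 passed; the count was 8 with no filter, 15 with a mean of at least 5 FPKM, 103 with array weights, 223 with Xist as a covariate, 3 in the 5 libraries without Xist, 13 without both knockout 2 and knockout 4, and from 2 to 27 when 1 library was left out. Without scaling 36 genes passed higher and 13 lower, against 22 and 18, and the median of all genes was 0.07. Some of these fits held fewer genes or fewer libraries, and the cause of these changes was not tested. Genes of the other 3 lists numbered 0 past the threshold in limma under all 19 alternatives, with 1 to 8 at an unadjusted p under 0.05. Of all genes, between 942 (of 7107 tested) and 2134 (of 19474 tested) were at that level. With the replicate number as a block 0 genes passed over all genes (1313 at an unadjusted p under 0.05) and 0 members (3 at that level). Deviations of same-numbered libraries had correlations of -0.43, -0.19, 0.35 and 0.19, and 3 of 8 libraries correlated best with their own number. With so few libraries these values cannot settle whether the numbers pair the samples, and no label says that they do. Without read counts, the precision of low genes such as Sepn1 is unknown.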

Other observations

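Among the redox partners, single libraries differed far more than the groups did, and the genes in this paragraph were chosen after their values were seen. Nnt, the mitochondrial transhydrogenase that makes NADPH, which glutathione reductase and Txnrd2 use in that compartment, stood at 56.8, 6.18, 21.5 and 6.70 scaled FPKM in controls 1 to 4 and at 13.03, 36.4, 17.1 and 39.0 in knockouts 1 to 4. The SD of the controls, 23.8, exceeded their mean of 22.8. The 3 libraries with Xist held the highest values, and control 2 and control 4 the lowest. The C57BL/6J strain is known to carry a deletion within Nnt; no source used here names the strain of these mice, and its part in these values was not tested. The log2 difference between the groups was 0.60 (95% interval -0.92 to 2.12, adjusted p = 0.758 in limma), but -0.58 within the libraries with Xist, 0.57 within those without and -0.04 without both knockout 2 and knockout 4. Idh2, the other mitochondrial source of NADPH on the list, was also highest in control 1, at 279 scaled FPKM, and lowest in control 2, at 127. The adult beta-globin gene Hbb-bs stood at 10.6, 5.97 and 6.82 scaled FPKM in knockouts 1, 2 and 3 and at or below 0.00664 in the other 5 libraries. Hbb-bt, the other beta-globin gene among the markers, lay between 34.1 and 90.5 in all 8, and Hba-a1 between 134 and 319. Beta-globin RNA was therefore listed in every library.

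Txnip, which binds and inhibits thioredoxin, ranged from 182 to 418 scaled FPKM in controls and from 141 to 381 in knockouts. Gclc, the catalytic subunit of the enzyme that limits glutathione synthesis, reached 12.5 scaled FPKM in knockout 1, against 5.43 to 6.93 in knockouts 2 to 4.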
